A study of Mus musculus with 10 samples.

Results

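The 10 genes described here, Tgfb1, Tgfb3, Tgfbr1, Tgfbr2, Smad2, Smad3, Smad4, Smad7, Ski and Skil, encode ligands, receptors, SMAD transcription factors and inhibitors of transforming growth factor beta (TGF-β) signalling. Their chromatin was followed in mouse Th17 cells by ATAC-seq, in which a transposase cuts DNA where chromatin is open. A site was assigned to one of these genes if that gene's body was the nearest protein-coding gene body on GRCm38, at most 50 kb away and at 0 kb where they overlapped. This rule took 92 of the 39657 sites in the authors' table, and all 10 genes had at least 1 site: Smad3 and Smad7 20 each, Tgfbr2 17, Ski 16, Skil 6, Tgfbr1 5, Smad4 3, Tgfb1 and Tgfb3 2 each, and Smad2 1. Nearness was the only link between a site and its gene, and whether a site regulates that gene was not tested.

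All mice carried floxed pyruvate dehydrogenase, written PDHfl/fl in the growth protocol and PHD-fl/fl in the sample titles. KO mice also carried CD4-Cre, a recombinase driven by the CD4 promoter and so active in the T cell lineage, and WT mice carried no Cre. Naive CD4+ T cells from spleen and lymph nodes were grown for 3 days as Th17 cells with plate-bound anti-CD3 (5 µg/mL), anti-CD28 (1 µg/mL), IL-6 (30 ng/mL), TGF-β (2 ng/mL) and anti-IFNγ (5 µg/mL). The libraries were KO with 10 mM sodium acetate (n = 2), KO untreated (n = 3), WT with 10 mM sodium acetate (n = 2) and WT untreated (n = 3). TGF-β was thus in the medium of every group, controls included. The labels do not say that replicates were separate animals or cultures, so p-values measure the spread between libraries only.

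TGF-β ligands bind the receptor encoded by Tgfbr2, which then phosphorylates the receptor encoded by Tgfbr1. The active receptor phosphorylates SMAD2 and SMAD3, which join SMAD4 and move to the nucleus to regulate genes, while SMAD7, SKI and SKIL hold the pathway back. In naive CD4+ T cells TGF-β together with IL-6 drives the Th17 fate, and without IL-6 it favours regulatory T cells.

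RefSeq promoter windows (GRCm38.p6, 250 bases before to 50 after a start) were at hand for Tgfb1, Tgfbr1, Tgfbr2, Smad3 and Ski. The Smad3 site chr9:63758020-63758220 lay wholly inside its window, at positions 25 to 225 counted from the window's 5′ end. The Tgfbr2 site chr9:116175143-116175343 covered the last 30 bases of its window, positions 271 to 300, just downstream of the start. The nearest sites of Tgfbr1, Ski and Tgfb1 lay 50, 1547 and 2412 bases outside the nearest window. The 250 bases before the start are shown for the 2 genes with a site in the window, 5′ to 3′ on the gene's minus strand. Capitals mark the bases inside the accessible site for Smad3 (chr9:63757995-63758244) and the match to CAGAC for Tgfbr2 (chr9:116175364-116175613).
Smad3: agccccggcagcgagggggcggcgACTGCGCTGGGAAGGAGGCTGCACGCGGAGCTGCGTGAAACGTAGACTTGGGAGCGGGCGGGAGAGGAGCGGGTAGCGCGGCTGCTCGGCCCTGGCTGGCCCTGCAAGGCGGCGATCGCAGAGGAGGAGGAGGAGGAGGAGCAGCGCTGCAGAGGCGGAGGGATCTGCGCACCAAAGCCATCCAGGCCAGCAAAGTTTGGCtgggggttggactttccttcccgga
Tgfbr2: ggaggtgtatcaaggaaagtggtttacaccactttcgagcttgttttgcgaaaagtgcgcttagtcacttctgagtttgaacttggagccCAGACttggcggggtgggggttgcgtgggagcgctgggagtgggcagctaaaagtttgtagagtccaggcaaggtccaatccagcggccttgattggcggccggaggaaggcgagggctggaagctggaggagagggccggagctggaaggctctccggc
On both strands, CAGAC (the SMAD binding element core) matched once in the Tgfbr2 window, at position 91 outside the site, and nowhere in the Smad3 window. TGANTCA (AP-1) and ACGTCA (the CREB core) matched in neither. Of 32851 promoter windows of the same length, 49.6% held CAGAC, 7.81% TGANTCA and 7.51% ACGTCA. With a single match in the Smad3 and Tgfbr2 windows, no motifs overlapped. CAGAC also matched once, at position 48, in the Tgfbr1 window chr4:47385966-47386265, which no site touched. None of the motifs matched in the other Tgfbr1 window or in those of Ski and Tgfb1.

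Each member site was 201 bp wide, and 68 overlapped the body of their gene. In position, 13 (14.1%) lay within 1 kb of either gene end, against 9827 (24.8%) of all sites. The mean signal over the 10 libraries had a median of 138 over the members and 146 over the table, and the members ranged from 32.3 to 829. Signal is the authors' normalized value: each library's whole read counts were scaled by a single factor of that library.

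Untreated KO libraries stood apart from the others over the whole table. Nuclear signal summed to between 5554774 and 6977912 in the KO untreated libraries, against 9015981 to 11246191 in the WT untreated ones. With acetate the sums were 8479618 to 9397315 for KO and 9333818 to 10747892 for WT. Mitochondrial DNA gave 1.18% to 2.01% of the signal in KO untreated libraries and 0.201% to 0.658% in the other groups. The median log2 difference of all sites between untreated KO and WT was −0.84 on the deposited scale and −0.00051 after cyclic loess, a normalization that sets libraries to a common level. Both scales are therefore given for the counts of calls and the named differences, except where a single scale is stated, and whether the global shift lies in the cells or in the libraries was not tested. Column names carried the prefix ATAC2 in all acetate libraries and WT untreated 4, and ATAC1 in the other untreated libraries of both genotypes. Acetate and this prefix cannot be told apart within KO. The labels name pyruvate dehydrogenase without saying which subunit gene or exons are floxed, so no site was used to check the deletion. Of the Th17 marker genes 8 of 9 had a site (Il22 had none), and these sites held 0.191% to 0.214% of the signal in KO untreated and 0.133% to 0.172% in WT untreated libraries. With acetate they held 0.198% to 0.223% in KO and 0.150% to 0.163% in WT, so the genotypes did not overlap in either condition. A share sums over sites and can rest on few of them. On the deposited scale 61 of the 71 sites were called lower and 9 higher in untreated KO (89.6% and 9.07% of the table). With acetate 6 were called higher and 0 lower in KO against WT (0.0227% and 0.0% of the table). The list holds Cd4, and Cre in KO mice is driven by the CD4 promoter. Any part of the transgene in the Cd4 signal was not tested. Sites of 3 of the 5 CD8 T cell genes held 0.0193% to 0.0202% of the signal in KO untreated and 0.0261% to 0.0287% in WT untreated libraries, and Cd8a and Cd8b1 had no site. Sites of 3 of 4 gamma-delta T cell genes held 0.00925% to 0.00993% in KO untreated and 0.00767% to 0.00846% in WT untreated libraries. The remaining gene, Trdc, was not among the protein-coding genes used and so could have no site. With acetate the genotypes overlapped for both lists. The CD8 genes held 0.0285% to 0.0305% in KO and 0.0278% to 0.0318% in WT. For the gamma-delta genes the shares were 0.00679% to 0.00691% in KO and 0.00587% to 0.00698% in WT. Untreated KO and WT libraries overlapped for the regulatory T cell genes (4 of 4 with a site; 0.0833% to 0.0895% and 0.0877% to 0.0969%), for the myeloid genes (3 of 6, none at Csf1r, Lyz2 and Cebpa; 0.0166% to 0.0176% and 0.0155% to 0.0182%) and for the NK and innate lymphoid genes (3 of 4, none at Ncr1; 0.0237% to 0.0256% and 0.0208% to 0.0251%). The part of other cells in the results was not tested, and in bulk samples fewer cells with an open site and less opening per cell cannot be told apart.

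The first comparison sets KO beside WT Th17 cells without acetate. The genotypes differ by CD4-Cre, so the presence of Cre and the deletion cannot be told apart. On the deposited scale 91 of the 92 member sites were called lower in KO and 1 higher, at an adjusted p under 0.05 (limma over all 39657 sites, Benjamini-Hochberg). Over all sites 89.6% were called lower and 9.07% higher. Lower calls thus prevailed over the whole table as well, and higher calls were rarer among the members. Whether the members differ from the table in this was not tested. The table's sites are numbered as differential sites and are taken as selected on these samples, so these counts are not independent evidence of direction. The median difference was −0.90 over the members and −0.84 over all sites. After cyclic loess 1 member was called higher and 3 lower (9.35% and 2.41% of the table), and 34 of the 92 differences lay above 0. In 82 member sites every KO library was below every WT library and in 1 every KO library was above (80.9% and 8.61% of the table).

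**Figure D1:**
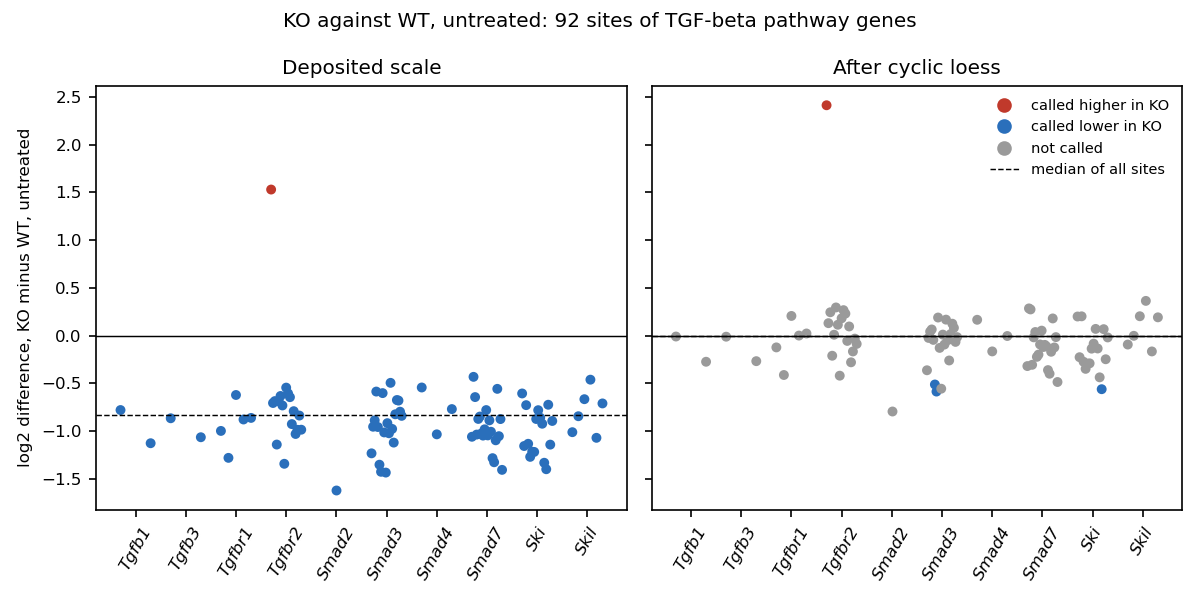
Log2 difference of signal, untreated KO minus untreated WT, at each of the 92 member sites (points, ordered by position within a gene) on the deposited scale (left) and after cyclic loess (right). Red and blue mark sites called higher and lower in KO, and the dashed line is the median of all 39657 sites. A single Tgfbr2 site, at 1.53 on the left and 2.41 on the right, stands above the rest, and all others are lower on the left.

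The only member site called more open in untreated KO cells belonged to Tgfbr2, the receptor that binds the ligand. It lay at chr9:116081879-116082079, 5.616 kb beyond the gene's 3′ end. Signal was 177, 210 and 271 in KO untreated libraries 1, 2 and 3, against 110, 115 and 32.1 in WT untreated libraries 1, 2 and 4. Every KO library was above every WT library, and WT untreated 4 was far below the other WT libraries. The log2 difference was 1.53 ± 0.37 (SE; adjusted p = 0.00101, limma), a 2.89-fold higher signal, and 2.41 ± 0.34 after cyclic loess (adjusted p = 3.34e-05, limma). It was called higher in KO under each alternative scaling and test tried and without each library in turn, but fell to 0.94 without WT untreated 4 or within ATAC1. With acetate, signal was 115 and 107 in KO and 67.7 and 108 in WT, so the genotypes overlapped there.

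The other 16 Tgfbr2 sites were all called lower in untreated KO on the deposited scale, with a median over the 17 sites of −0.73. None of the 16 was called after cyclic loess. The strongest Tgfbr2 site, chr9:116091159-116091359 in the gene body, had 414, 488 and 542 in KO untreated and 845, 775 and 697 in WT untreated libraries. Its groups did not overlap, yet its difference of −0.69 ± 0.19 on the deposited scale was smaller than the table's median shift and became 0.01 after cyclic loess. The Tgfbr2 site with the smallest p, chr9:116135235-116135435 in the gene body, differed by −1.34 ± 0.26 (adjusted p = 8.56e-06, limma) and by −0.42 after cyclic loess (adjusted p = 0.416). The start site of Tgfbr2, chr9:116175143-116175343, averaged 292 ± 58.1 in KO untreated and 605 ± 155 in WT untreated libraries (SD, n = 3 each). Its difference was −1.03 on the deposited scale and −0.28 after cyclic loess, where it was not called.

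Tgfbr1 encodes the partner receptor kinase, and each of its 5 sites was lower in untreated KO on the deposited scale. Averaged over these sites, signal was 77.4, 72.5 and 89.1 in KO untreated and 167, 122 and 137 in WT untreated libraries. The strongest site, chr4:47352722-47352922, 0.3 kb upstream of the gene body, averaged 190 ± 18.9 in KO and 298 ± 75.0 in WT (SD, n = 3 each). Its difference of −0.62 turned to 0.21 after cyclic loess. The site with the smallest p, chr4:47347139-47347339, 5.883 kb upstream, differed by −0.997 ± 0.227 (adjusted p = 7.43e-05, limma) and by −0.12 after cyclic loess (adjusted p = 0.777).

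Both ligand genes were lower at all their sites in untreated KO on the deposited scale. Over the 2 Tgfb1 sites signal averaged 178, 208 and 206 in KO untreated and 407, 322 and 361 in WT untreated libraries. The Tgfb1 site in the gene body, chr7:25689463-25689663, differed by −0.78 and by −0.01 after cyclic loess, and changed sign under 2 other scalings. The site 0.803 kb beyond the Tgfb1 gene, chr7:25705880-25706080, had 95.4, 92.5 and 103 in KO untreated and 229, 217 and 193 in WT untreated libraries. Its groups were well apart, with a difference of −1.13 ± 0.22 (adjusted p = 6.55e-06, limma) and −0.27 after cyclic loess (adjusted p = 0.403). Over the 2 Tgfb3 sites signal averaged 141, 131 and 192 in KO untreated and 345, 262 and 318 in WT untreated libraries. The stronger one, chr12:86079451-86079651, 0.41 kb outside the gene body, differed by −1.06 ± 0.21 (adjusted p = 7.13e-06, limma) and by −0.27 after cyclic loess (adjusted p = 0.267).

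Smad3, which encodes a receptor-activated SMAD, held 2 of the 3 sites that stayed lower in untreated KO after cyclic loess, both in the gene body. At chr9:63716257-63716457 signal was 79.0, 87.8 and 136 in KO untreated and 312, 252 and 237 in WT untreated libraries. The highest KO library was well under the lowest WT library. The difference was −1.43 ± 0.22 (adjusted p = 3.39e-08, limma) and −0.58 ± 0.16 after cyclic loess (adjusted p = 0.0227). At chr9:63711914-63712114 signal was 99.8, 97.1 and 147 in KO untreated and 338, 295 and 240 in WT untreated libraries. The groups did not overlap here either, and the difference was −1.35 ± 0.22 (adjusted p = 1.11e-07, limma), or −0.51 ± 0.16 after cyclic loess (adjusted p = 0.0483). All 20 Smad3 sites were called lower on the deposited scale, from −1.43 to −0.49. The strongest, chr9:63706450-63706650, averaged 666 ± 68.8 in KO untreated and 997 ± 80.3 in WT untreated libraries (SD, n = 3 each), and its difference of −0.58 became 0.07 after cyclic loess. The site in the promoter shown above, chr9:63758020-63758220, had 315, 381 and 406 in KO untreated and 694, 500 and 735 in WT untreated libraries. It differed by −0.80 ± 0.20 (adjusted p = 0.000199, limma), near the table's median, and by −0.06 after cyclic loess (adjusted p = 0.854).

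**Figure D2:**
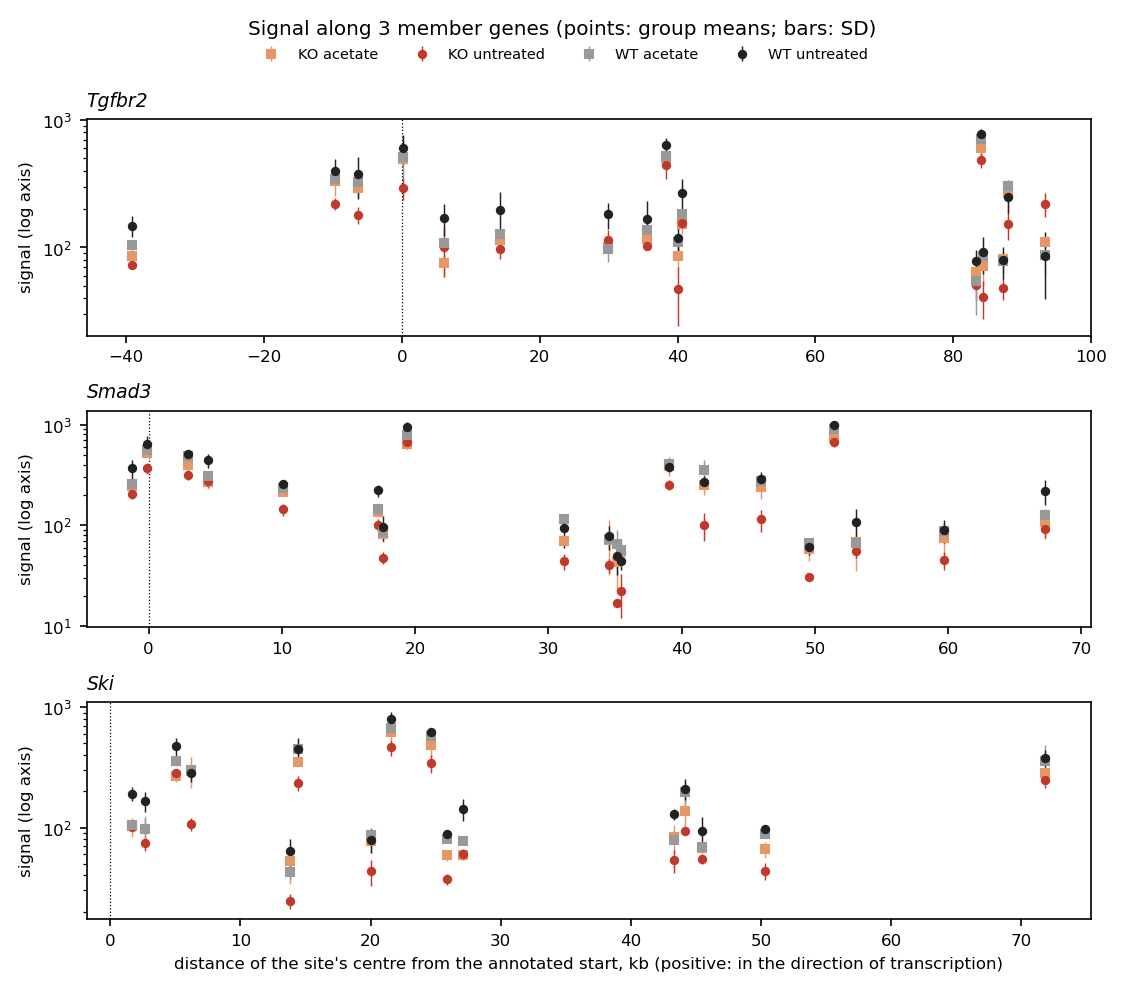
Group mean signal (log axis; bars, SD; n = 2 for the acetate groups and 3 for the untreated ones) at each Tgfbr2, Smad3 and Ski site against the distance of its centre from the annotated start in kb. KO untreated (red circles) lies below WT untreated (black circles) at each site except the Tgfbr2 site 93.38 kb downstream of the start, where it is the highest group at 219 against 85.5.

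Smad2, the partner of Smad3, had 1 site, chr18:76286558-76286758 in its gene body, and it was the least open member site in untreated KO. Signal was 6.58, 7.47 and 10.6 in KO untreated and 28.7, 32.1 and 21.0 in WT untreated libraries. The KO values rested on 8 to 12 reads per library, so they are imprecise, but they lay under every WT value. The difference was −1.62 ± 0.36 (adjusted p = 6.29e-05, limma) and −0.79 ± 0.28 after cyclic loess, where it was not called (adjusted p = 0.0905). Smad4 encodes the SMAD that both join. Over its 3 sites signal averaged 248, 280 and 314 in KO untreated and 499, 455 and 426 in WT untreated libraries. The strongest, chr18:73643206-73643406 in the gene body, differed by −0.54 and by 0.17 after cyclic loess. The site with the smallest p, chr18:73644853-73645053 in the gene body, had 80.1, 83.1 and 99.3 in KO untreated and 241, 263 and 90.7 in WT untreated libraries. WT untreated 4 fell within the KO range here, so the difference of −1.03 ± 0.25 (adjusted p = 0.000234, limma) rested on WT untreated 1 and 2, and after cyclic loess it was −0.16 (adjusted p = 0.846).

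Among the inhibitors, Ski gave the third site that stayed lower in untreated KO after cyclic loess. SKI is a co-repressor that binds SMAD complexes. At chr4:155216195-155216395, in the gene body 6.24 kb from the start, signal was 92.1, 113 and 116 in KO untreated and 277, 242 and 335 in WT untreated libraries. Each WT library was above each KO library. The difference was −1.40 ± 0.21 (adjusted p = 3.78e-08, limma) and −0.56 ± 0.17 after cyclic loess (adjusted p = 0.0325). All 16 Ski sites were called lower on the deposited scale, with a median of −1.03. The strongest, chr4:155200872-155201072 in the gene body, differed by −0.78 and by −0.08 after cyclic loess.

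Smad7 encodes the inhibitory SMAD that blocks the receptor, and its 20 sites had a median of −1.01 on the deposited scale and −0.12 after cyclic loess. None was called after cyclic loess. The strongest, chr18:75353511-75353711, 13.65 kb outside the gene body, had 434, 518 and 572 in KO untreated and 843, 689 and 544 in WT untreated libraries. Its groups overlapped through WT untreated 4, and its difference of −0.43 on the deposited scale became 0.29 after cyclic loess. The site with the smallest p, chr18:75359499-75359699, 7.666 kb outside the gene body, differed by −1.04 ± 0.20 (adjusted p = 3.87e-06, limma) and by −0.30 after cyclic loess (adjusted p = 0.213). Skil encodes SKIL, a relative of SKI, and its 6 sites had a median of −0.78 on the deposited scale and 0.10 after cyclic loess. Its strongest site, chr3:31109198-31109398 in the gene body, differed by −0.46 and by 0.36 after cyclic loess, and its groups overlapped. Its site with the smallest p, chr3:31086180-31086380, 8.678 kb outside the gene body, differed by −1.01 ± 0.25 (adjusted p = 0.000242, limma) and by −0.09 after cyclic loess (adjusted p = 0.892).

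Acetate can be turned into acetyl-CoA without pyruvate dehydrogenase, the mitochondrial enzyme targeted in KO mice. The second question was how the sites differed with acetate in KO cells. On the deposited scale 46 of the 92 member sites were called higher with acetate (54.6% of the table) and 0 lower (5.94% of the table). Unadjusted, 53 had a p under 0.05 in either direction, against 25991 of all 39657 sites. With the deposited factors edgeR called 1 lower, against 2444 over the table. The median was 0.58 over the members and 0.61 over the table. After cyclic loess 4 members were called higher (11.5% of the table) and 13 lower (16.7% of the table), so both directions depended on the scale. With the column prefix as a term, whose size can be estimated from the WT untreated libraries only, the deposited scale called 32 members higher and 0 lower. Over the table the higher calls then numbered 10828, against 21657 without the term, and the lower calls 1002, against 2357. Without KO untreated 1 the deposited scale called 28 member sites higher, against 15507 of all 39657 sites. Without KO acetate 1, which leaves 1 library in its group, fewer still were called among the members and over the table. Every KO acetate library was above every KO untreated library at 61 member sites and below at 2 (69.8% and 8.15% of the table).

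The 4 sites called higher with acetate in KO on both scales were 1 each of Smad7, Smad2, Smad3 and Ski. At the Smad7 site chr18:75359499-75359699 signal was 903 and 641 in KO with acetate and 226, 275 and 290 in KO untreated libraries. With acetate it exceeded every untreated KO library by a wide margin. The difference was 1.53 ± 0.22, or 2.89-fold (adjusted p = 2.59e-09, limma), and 1.03 ± 0.15 after cyclic loess (adjusted p = 9.64e-05). At the Smad2 site signal was 54.6 and 46.8 in KO with acetate, against the 6.58, 7.47 and 10.6 of the KO untreated libraries. This was the steepest difference among the members, 2.50 ± 0.41 or 5.68-fold (adjusted p = 1.23e-07, limma), and 1.74 ± 0.31 after cyclic loess (adjusted p = 0.00055).

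The other pair, in Smad3 and Ski, were among the 3 sites lower in untreated KO after cyclic loess. The remaining one of those 3, Smad3 chr9:63711914-63712114, was not called with acetate in KO after cyclic loess (0.40, adjusted p = 0.11, limma). At Smad3 chr9:63716257-63716457 signal was 286 and 216 in KO with acetate, against 79.0, 87.8 and 136 in KO untreated libraries. The difference was 1.33 ± 0.24 (adjusted p = 2.06e-06, limma) and 0.67 ± 0.18 after cyclic loess (adjusted p = 0.011). At Ski chr4:155216195-155216395 signal was 357 and 237 in KO with acetate, against 92.1, 113 and 116 in KO untreated libraries. The difference was 1.44 ± 0.24 (adjusted p = 2.2e-07, limma) and 0.79 ± 0.18 after cyclic loess (adjusted p = 0.00428). Both comparisons of these sites use the same KO untreated libraries, so a low value in those enters both. The Skil site chr3:31086180-31086380 was also among the 5 with the smallest p, at 1.30 ± 0.28 (adjusted p = 5.65e-05, limma), but was not called after cyclic loess (0.57, adjusted p = 0.0827). The Tgfbr2 site beyond the 3′ end went the other way, with 115 and 107 in KO with acetate and 177, 210 and 271 in KO untreated libraries. Its difference of −0.95 ± 0.41 was not called on the deposited scale (adjusted p = 0.0526, limma) and was −1.66 ± 0.38 after cyclic loess (adjusted p = 0.00357).

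**Figure D3:**
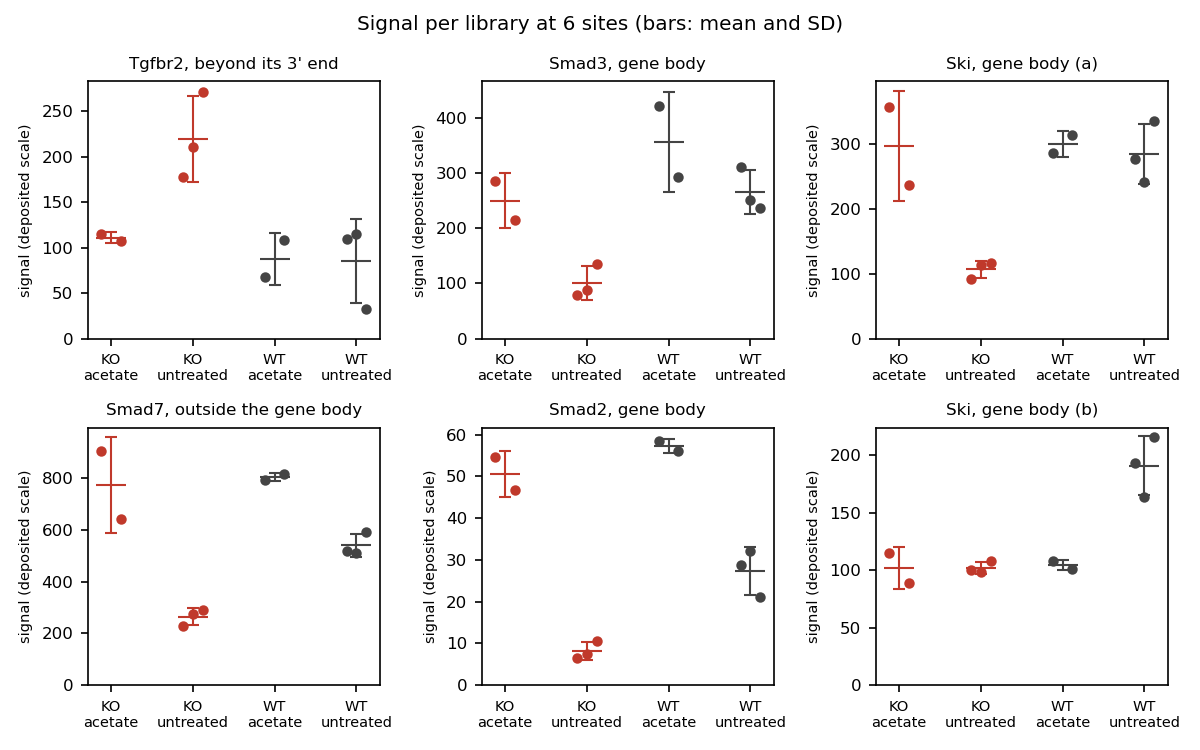
Signal per library (points; deposited scale, axis from 0) at 6 member sites in KO with acetate, KO untreated, WT with acetate and WT untreated libraries, with the group mean and SD (n = 2, 3, 2 and 3). The upper row shows the Tgfbr2 site that is highest in untreated KO (219) and the Smad3 and Ski sites that are lowest there (101 and 107). The lower row shows the Smad7 and Smad2 sites, where the acetate mean is the higher one in both genotypes, and the Ski site 1.696 kb from the start, where WT untreated (191) stands above the other groups.

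In WT cells few member sites were called different with acetate. On the deposited scale 4 were called lower (3.02% of the table) and 0 higher (2.91% of the table). Unadjusted, 21 had a p under 0.05 in either direction, against 7172 of all 39657 sites. With TMM edgeR called 2 higher, against 1605 over the table. After cyclic loess 7 were called lower and 2 higher (4.07% and 4.43% of the table). Both acetate libraries lay under every untreated one at 26 member sites and above at 4 (15.3% and 16.1% of the table). The 4 sites called lower on the deposited scale were in the gene bodies of Tgfbr2, Smad7 and Ski. At Tgfbr2 chr9:116145331-116145531 signal was 83.1 and 110 in WT with acetate, against 230, 162 and 154 in WT untreated libraries, a difference of −0.89 ± 0.26 (adjusted p = 0.0186, limma). At Smad7 chr18:75371382-75371582 it was 98.5 and 90.6 in WT with acetate, against 180, 156 and 175 in WT untreated libraries, a difference of −0.84 ± 0.26 (adjusted p = 0.0341, limma). At each of these sites both acetate libraries lay under every untreated one.

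At Ski chr4:155195357-155195557 signal was 73.8 and 79.3 in WT with acetate, against 171, 144 and 112 in WT untreated libraries, a difference of −0.86 ± 0.28 (adjusted p = 0.0434, limma). At Ski chr4:155220739-155220939 it was 108 and 101 in WT with acetate, against 194, 164 and 216 in WT untreated libraries, a difference of −0.86 ± 0.25 (adjusted p = 0.0238, limma). The groups did not overlap at either. Within ATAC2 alone, where WT untreated 4 is the single untreated library and is assumed to vary like the others, the differences were −0.68 at the Tgfbr2 site, −0.88 at the Smad7 site and −0.54 and −1.04 at the Ski sites. Of these 4 the Ski site at −1.04 alone was called. Without WT untreated 1 no member site was called lower, against 305 over the table. Without WT untreated 4 there were 12, against 2370 over the table. The lower calls also fell, among the members and over the table, without either WT acetate library, which leaves 1 in its group. In KO on the deposited scale these 4 sites differed with acetate by −0.19 at Tgfbr2, 0.06 at Smad7 and −0.002 and −0.01 at Ski, none of them called. After cyclic loess all 4 were called lower with acetate in WT, from −0.87 to −0.81, and in KO, from −0.89 to −0.65.

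The pair of sites called higher after cyclic loess were those of Smad2 and Smad7 already named. Neither was called on the deposited scale. The Smad2 site had 58.5 and 56.2 in WT with acetate, against 28.7, 32.1 and 21.0 in WT untreated libraries. Both acetate libraries were above all untreated ones. The difference of 1.06 ± 0.41 was not called on the deposited scale (adjusted p = 0.106, limma), while cyclic loess gave 1.07 ± 0.31 (adjusted p = 0.0436). The Smad7 site chr18:75359499-75359699 had 794 and 815 in WT with acetate, against 517, 510 and 592 in WT untreated libraries. Again the groups did not overlap, with 0.58 ± 0.22 on the deposited scale (adjusted p = 0.1, limma) and 0.63 ± 0.15 after cyclic loess (adjusted p = 0.0179).

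The acetate differences in the 2 genotypes, which share no library, went together across the member sites. Over the 92 sites Pearson's r was 0.664 and Spearman's rho 0.674 on the deposited scale, and 0.688 and 0.701 after cyclic loess. Over all 39657 sites they were 0.484 and 0.574 on the deposited scale and 0.479 and 0.591 after cyclic loess. On the deposited scale 10 member sites were below 0 in both genotypes and 27 above 0 in both (8.99% and 41.9% of the table). After cyclic loess 46 were below 0 in both and 24 above 0 in both (37.8% and 36.9% of the table), so the more frequent direction depended on the scale. Sites are not independent replicates, and all acetate libraries share the ATAC2 prefix that 5 of the 6 untreated libraries lack. The part of the prefix in this relation was not tested.

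**Figure D4:**
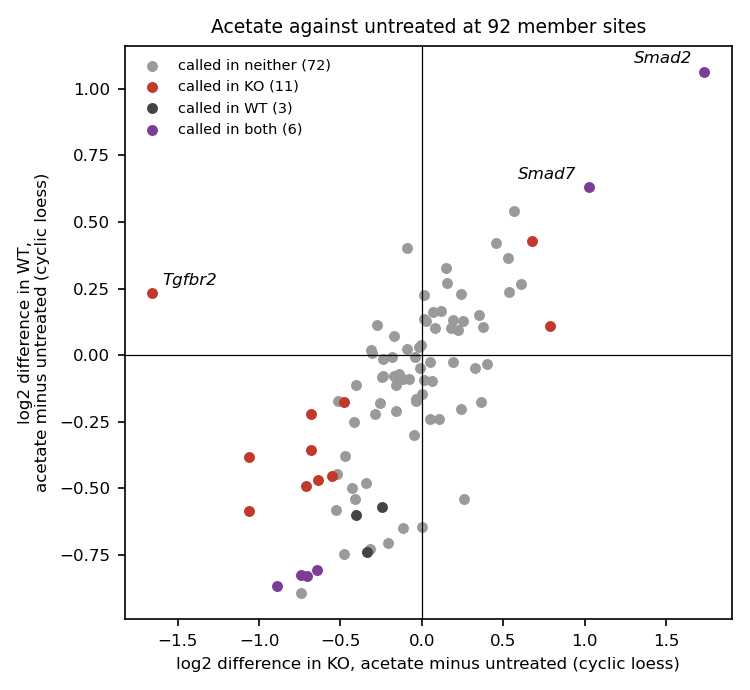
Log2 difference of signal between acetate and untreated libraries after cyclic loess at the 92 member sites, in KO (horizontal) and in WT (vertical). Colours show where a site was called. The Smad2 (1.74 and 1.07) and Smad7 (1.03 and 0.63) sites lie at the upper right, and the Tgfbr2 site beyond the 3′ end (−1.66 in KO) lies apart at the left.

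With acetate in both genotypes, no member site was called different between KO and WT. The counts were 0 higher and 0 lower of 92 on the deposited scale (limma; 0.0227% and 0.0% of the table), after cyclic loess and with edgeR. Unadjusted, 2 member sites had a p under 0.05, against 914 of all 39657 sites. The median difference was −0.18 over the members and −0.15 over the table, and differences ranged from −0.72 to 0.37. Both KO libraries lay under both WT libraries at 31 member sites and above at 1 (30.3% and 4.63% of the table). The absence of calls does not show that the genotypes were alike.

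Setting KO with acetate beside WT untreated, 13 member sites were called lower (5.74% of the table) and 0 higher (2.09% of the table). Unadjusted, 30 had a p under 0.05 in either direction, against 8495 of all 39657 sites. With TMM edgeR called 2 higher, against 1826 over the table. After cyclic loess 10 were called lower and 1 higher (3.89% and 4.28% of the table). The groups did not overlap at 37 member sites that were lower and 2 that were higher (25.2% and 9.36% of the table). Of the 13, 4 each belonged to Tgfbr2 and Smad7, 3 to Ski and 2 to Smad3. They included all 4 sites called lower with acetate in WT, a comparison that uses the same WT untreated libraries. All KO acetate libraries are ATAC2 and 2 of the 3 WT untreated ones ATAC1. Without WT untreated 1 the count was 1 and without WT untreated 4 it was 23, against 554 and 4477 of all 39657 sites. Within ATAC2 or without either KO acetate library, the counts among the members and over the table were lower than with all libraries. Each of these settings leaves 1 library in a group.

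Whether acetate changed the genotype difference was tested by the interaction, the acetate difference in KO minus that in WT. On the deposited scale 19 member sites were called above 0 (19.5% of the table) and 0 below (3.61% of the table). Unadjusted, 44 had a p under 0.05 in either direction, against 19770 of all 39657 sites. Both with TMM and with the deposited factors edgeR called 1 below 0, against 2723 and 1548 over the table. Of the 19, 6 belonged to Smad7, 4 each to Smad3 and Ski, and 1 each to Tgfb1, Tgfb3, Tgfbr1, Tgfbr2 and Skil. The median was 0.77 over the members and 0.67 over the table. After cyclic loess none of the 19 was called above 0 (0.139% of the table), and the single member called was below 0 (7.36% of the table). It was the Tgfbr2 site beyond the 3′ end, at −1.89 ± 0.53 (adjusted p = 0.0366, limma). The largest of the 19, Ski chr4:155208629-155208829 in the gene body, had 65.6 and 39.2 in KO with acetate, 23.6, 21.5 and 28.4 in KO untreated, 46.2 and 38.6 in WT with acetate, against 82.4, 56.3 and 53.1 in WT untreated libraries. It was thus higher with acetate in KO and lower with acetate in WT by group means, with an interaction of 1.59 ± 0.49 (adjusted p = 0.0217, limma) and 0.80 after cyclic loess (adjusted p = 0.388). The count of 19 became 2 without KO untreated 1 and 4 without KO untreated 2 or WT untreated 1. It became 29 without WT untreated 2 and 38 without WT untreated 4. Over the table the 7728 sites above 0 became 701, 1668, 1326, 16081 and 11359, in the same order. Leaving out any acetate library leaves 1 in its group, and the count then fell among the members and over the table alike.

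Of 53 other genes of the pathway 48 had a site, 190 in all, and Thbs1, Eng, Acvr2b, Smad9 and Tab3 had none. In untreated KO 20 of these sites were called higher and 169 lower on the deposited scale, and 20 higher and 3 lower after cyclic loess. Over the table the higher shares were 9.07% and 9.35% and the lower shares 89.6% and 2.41%. The higher sites included Smad6, a second inhibitory SMAD, at chr9:64015126-64015326 with 117 ± 18.5 in KO untreated and 36.8 ± 8.28 in WT untreated libraries (SD, n = 3 each). Its difference was 1.65 ± 0.29 (adjusted p = 9.02e-07, limma) and 2.57 after cyclic loess (adjusted p = 1.08e-06). Smad1 and Smad5, which carry signals of bone morphogenetic proteins, had 1 higher site each, at 0.99 and 1.44 on the deposited scale and 1.91 and 2.25 after cyclic loess. Higher sites were also found at the BMP receptor genes Bmpr1a and Bmpr1b (2 each), at the co-receptor gene Tgfbr3 (1), at the latent TGF-β binding protein genes Ltbp2 (4) and Ltbp1 (1), at the ligand gene Tgfb2 (1) and at the TGF-β-induced gene Tgfbi (2). The remaining higher sites were at Acvr1c (1), Nedd4l (2) and Ldlrad4 (1).

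The 3 sites of these genes that stayed lower after cyclic loess were at Ltbp3, at Itgav, which encodes an integrin chain that helps to release active TGF-β, and at Id2, a target of SMAD signalling. At Id2 chr12:25098811-25099011 signal averaged 146 ± 24.7 in KO untreated and 409 ± 115 in WT untreated libraries (SD, n = 3 each), a difference of −1.45 ± 0.21 (adjusted p = 8.6e-09, limma) and −0.64 after cyclic loess (adjusted p = 0.0051). With acetate it averaged 442 ± 12.2 in KO and 448 ± 88.1 in WT (SD, n = 2 each). At the Itgav site chr2:83744765-83744965 signal averaged 77.6 ± 2.72 in KO untreated and 233 ± 16.4 in WT untreated libraries (SD, n = 3 each), a difference of −1.57 ± 0.22 (adjusted p = 1.67e-09, limma) and −0.72 after cyclic loess (adjusted p = 0.0022). With acetate none of the 190 sites was called between KO and WT by limma on either scale. Of all 39657 sites only 9 (0.0227%) were called higher in KO and 0 lower, on each scale. The absence of calls thus does not set these genes apart from the other sites. In KO acetate gave 105 higher and 13 lower calls among the 190 on the deposited scale (54.6% and 5.94% of the table) and 18 higher and 34 lower after cyclic loess (11.5% and 16.7% of the table). In WT it gave 5 higher and 10 lower (2.91% and 3.02% of the table), and 6 and 11 after cyclic loess (4.43% and 4.07% of the table).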

How the data were processed

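The authors deposited 1 table of ATAC-seq signal in sites for 10 libraries, on GRCm38 per the labels. Tools named in the submitters' processing notes are BWA 0.7.16a, deepTools 3.5.1, DESeq, DESeq2, DiffBind 3.6.1, FastQC 0.11.5, Genrich and Picard 2.10.9; their roles and settings are not given in the sources used here. Values were whole reads divided by 1 factor per library: within 0.001 reads, 100% were whole multiples of 1 step. A library held between 3500172 and 13356560 reads in the sites.

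Because the values proved normalized, log2(value + 1) was analysed in R 4.3.3 by limma 3.58.1 with trend and robust settings, as 4 group means in 1 model of all 10 libraries and without a block, adjusted over all sites. Sites were called below an adjusted p of 0.05. Alternatives were cyclic loess, median-of-ratios and total-signal scaling, a pseudocount of 10, a low-signal filter, sites inside the gene body, the column prefix, each library left out, a replicate block, and edgeR 4.0.16 on the recovered reads. The limma and edgeR models were run on simulated counts without a shift of whole libraries or a prefix difference, and cyclic loess was not included. That simulation therefore cannot tell how the models behave under the shift seen here. A value after ± is the SD of a signal or the SE of a log2 difference. The columns numbered WT 4 and KO acetate 3 match no sample title and were placed by group only. Exon boundaries were not used here. The result of 1 marker list is not reported here. Named were each gene's strongest site and its site with the smallest p in untreated KO against WT, all sites called higher there or called in the interaction, and up to 5 per direction for acetate; the other named sites, the 2 Smad3 and Tgfbr2 start sites among them, were chosen after their values were seen. Members and gene lists were chosen with earlier results of these data known. Figures used Python 3.11.15 and matplotlib 3.10.9.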

Additional observations from a re-analysis of the deposited data

Results flagged for a closer look

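At 19 member sites the log2 acetate difference in KO was larger than that in WT by the interaction test on the deposited scale (limma, adjusted p under 0.05). The interaction was 1.23 at the Tgfb1 site chr7:25705880-25706080 and 1.00 at the Tgfb3 site chr12:86079451-86079651. It was 1.01 at the Tgfbr1 site chr4:47347139-47347339 and 1.02 at the Tgfbr2 start site chr9:116175143-116175343. Among the Smad3 sites it was 0.98 at chr9:63690608-63690808, 1.11 at chr9:63711914-63712114, 0.92 at chr9:63716257-63716457 and 1.03 at chr9:63740654-63740854. Among the Smad7 sites it was 0.84 at chr18:75342949-75343149, 0.96 at chr18:75359499-75359699 and 1.09 at chr18:75377795-75377995. Further along Smad7 it was 1.43 at chr18:75379029-75379229, 1.08 at chr18:75380327-75380527 and 1.14 at chr18:75394931-75395131. Among the Ski sites it was 1.31 at chr4:155179131-155179331, 1.59 at chr4:155208629-155208829, 1.36 at chr4:155216195-155216395 and 1.15 at chr4:155219775-155219975. At the Skil site chr3:31123092-31123292 it was 1.29. The table's median interaction was 0.67, and after cyclic loess the test called none of them.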

How the results depend on the processing

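Calls that rest on the level of whole libraries changed with the scaling. In untreated KO against WT, 91 lower sites became 3 with cyclic loess, median-of-ratios or edgeR TMM and 4 when total signal was equalized; the 1 higher site remained under each of these, and sites inside gene bodies gave 0 higher. Acetate in KO gave 46 higher sites, and 4, 6, 5 and 10 with cyclic loess, edgeR TMM, median-of-ratios and total signal, and 32 with the prefix term; its 0 lower became 13, 17, 16 and 12, and 1 with edgeR and the deposited factors, the low-signal filter or a pseudocount of 10. Acetate in WT gave 0 higher, and 2 with cyclic loess, edgeR TMM or the prefix as a term, 1 with median-of-ratios or total signal and 4 within ATAC2; its 4 lower became 7 with cyclic loess or edgeR TMM and 2 within ATAC2 or with the prefix term. KO with acetate against WT untreated gave 0 higher, and 2 with edgeR TMM and 1 with cyclic loess, median-of-ratios, total signal, the prefix term or ATAC2 alone; its 13 lower became 3 within ATAC2, 2 with the prefix term and 6 with total signal. The interaction gave 19 above 0, and 0 with cyclic loess, edgeR TMM, median-of-ratios and total signal, 31 with edgeR and the deposited factors and 38 with the prefix term; its 0 below became 1 with cyclic loess and both edgeR fits. Counts over all 39657 sites moved too, listed for cyclic loess, edgeR TMM, median-of-ratios and total signal. Lower in untreated KO went from 35545 to 956, 1452, 1323 and 2276. Higher with acetate in KO went from 21657 to 4567, 5136, 5265 and 6857, and to 10828 with the prefix term. Lower there went from 2357 to 6625, 6690, 6323 and 4991, and to 1002 with the prefix term. Interactions above 0 went from 7728 to 55, 94, 79 and 111. They went to 11228 with edgeR and the deposited factors and to 11403 with the prefix term. Lower with acetate in WT went from 1199 to 1615, 1356, 1381 and 1169, and to 412 with the prefix term. Higher there went from 1155 to 1757, 1605, 1626 and 1522, and to 1555. For KO with acetate against WT untreated, lower went from 2277 to 1542, 1838, 1384 and 1129, and to 390 with the prefix term. Higher there went from 827 to 1699, 1826, 1734 and 1680, and to 526. The cause was not tested.

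Leaving out each library in turn gave 1 to 1 higher and 78 to 91 lower in untreated KO against WT, and 0 to 0 in both directions with acetate. It gave 11 to 52 higher and 0 to 1 lower for acetate in KO, 0 to 1 higher and 0 to 12 lower for acetate in WT, 0 to 1 higher and 0 to 23 lower for KO with acetate against WT untreated, and 0 to 38 above and 0 to 1 below 0 for the interaction.

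Some untreated KO against WT differences reversed, listed for cyclic loess, edgeR TMM, median-of-ratios and total signal in turn. They became 0.21, 0.16, 0.18 and 0.092 at Tgfbr1 chr4:47352722-47352922, 0.010, 0.10, 0.12 and 0.028 at Tgfbr2 chr9:116091159-116091359, and 0.066, 0.21, 0.22 and 0.13 at Smad3 chr9:63706450-63706650. They became 0.17, 0.23, 0.26 and 0.17 at Smad4 chr18:73643206-73643406, 0.29, 0.35, 0.37 and 0.28 at Smad7 chr18:75353511-75353711, and 0.36, 0.32, 0.34 and 0.25 at Skil chr3:31109198-31109398. With edgeR TMM and median-of-ratios alone they became 0.018 and 0.024 at Tgfb1 chr7:25689463-25689663 and 0.018 and 0.023 at Ski chr4:155200872-155201072.

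Deviations of same-numbered libraries had r from −0.12 to 0.33, and those of differently numbered libraries r from −0.33 to 0.12. This check cannot decide on pairing, because deviations within so small a group are tied to each other. WT acetate 1 and WT acetate 2, for example, gave −0.33 and 0.33 with WT untreated 2. The numbers were not taken as pairs in the main model, and whether they mark pairs was not settled. The replicate block gave 1 higher and 91 lower member sites in untreated KO against WT and 50 higher for acetate in KO. It gave 17 lower for acetate in WT, 14 lower for KO with acetate against WT untreated and 53 above 0 for the interaction. Over the table these counts were 3301 and 35281, 20669, 3584, 2780 and 16009, in the same order. The block moved the higher Tgfbr2 site to 0.78, still called. No site had tied nearest genes, so leaving ties out was not run.

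Depth limits weak sites most: the Smad2 site had 8 to 12 reads per untreated KO library. With 2 acetate libraries a group, and with every KO acetate library under the other prefix than every untreated KO library, acetate in KO has no within-prefix value.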

Other observations

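Over genes with at least 3 sites, the mean log2 signal of each gene's sites, less the library's median over all sites, was compared with the same mean over the 92 member sites. Of 4629 genes, the most alike over the 10 libraries were B3gnt2 (r = 0.964), Myh9 (r = 0.962), Rfx4 (r = 0.950), Ccr6 (r = 0.946) and Xbp1 (r = 0.944). These are descriptions over libraries that share group, depth and column prefix. The member mean itself was −0.003 in KO with acetate, 0.03 in KO untreated, 0.02 in WT with acetate and 0.19 in WT untreated libraries. Within WT untreated it was 0.24 in libraries 1 and 2 (ATAC1) and 0.08 in library 4 (ATAC2). Ccr6, a chemokine receptor of Th17 cells, was at −0.79 in KO with acetate, −0.71 in KO untreated, −0.75 in WT with acetate and −0.29 in WT untreated libraries.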
